A study of Homo sapiens with 24 samples.

Results

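The 10 genes studied here carry glucose into the cell, sense it and start its breakdown. They were followed in HEK293T cells, an established human embryonic kidney line, after the enzymes that add or remove O-linked N-acetylglucosamine (O-GlcNAc) were inhibited. The genes were TXNIP, ARRDC4, MLXIP, SLC2A1, HK1, HK2, PFKFB3, PFKFB4, PFKP and LDHA. They were chosen by name as sensors, carriers and entry enzymes of glycolysis, and all 10 were present among the 13236 gene groups of the count tables, where they held 150 of 164219 bins. A bin is a stretch of a gene, an exon part or a retained intron, whose reads were counted separately. The value of a gene was the sum of its bins other than those marked as detained introns, which are introns left in polyadenylated nuclear transcripts. All 10 passed the filter on low counts in each of the comparisons.

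The cells were treated with 10 µM OSMI-2, which blocks the transferase OGT that adds O-GlcNAc, with 5 µM TMG (Thiamet-G), which blocks the hydrolase OGA that removes it, or with the solvent DMSO, for 2 h or 6 h. Each inhibitor and time had its own DMSO libraries, which gave 8 groups in 2 experiments, called here the OSMI-2 experiment and the TMG experiment. All groups received fresh medium 3 h before treatment and were grown in multiwell plates, so the DMSO groups at 2 h and 6 h also differ in the time since the medium was changed. Polyadenylated RNA was sequenced with a stranded kit. The labels list 24 samples, 3 in each group, and 23 libraries were analysed here, because only 2 of the OSMI-2 6 h group were in the tables. Libraries are named by the letter of their column (a, b or c).

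As background, glucose enters these cells mainly through the carrier GLUT1, encoded by SLC2A1, and is trapped by hexokinases as glucose 6-phosphate. MLXIP, also called MondoA, is a transcription factor that responds to this sugar phosphate together with its partner MLX, and TXNIP and ARRDC4 are the genes best known to be driven by it. Their products are arrestin-fold proteins that draw glucose carriers from the cell surface, which closes a feedback loop on uptake. Further down, PFKFB enzymes make the regulatory sugar bisphosphate that activates phosphofructokinase, and lactate dehydrogenase reduces pyruvate. The same sugar supply feeds the hexosamine pathway, which makes the donor for O-GlcNAc.

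The proximal promoters of TXNIP and ARRDC4 are shown, from RefSeq on GRCh38.p14. ARRDC4 was not called after either inhibitor, and its only called change was over time in DMSO of the TMG experiment. Each line gives the 250 bases that end at the transcription start, read along the gene. For TXNIP (chr1:145996580-145996829, minus strand) the capitals mark a carbohydrate response element as searched for here, that is, a pair of half-sites, each within 1 mismatch of CACGTG, with 5 bases between them. For ARRDC4 (chr15:97960453-97960702, plus strand) they mark the E-box CACGTG.
TXNIP: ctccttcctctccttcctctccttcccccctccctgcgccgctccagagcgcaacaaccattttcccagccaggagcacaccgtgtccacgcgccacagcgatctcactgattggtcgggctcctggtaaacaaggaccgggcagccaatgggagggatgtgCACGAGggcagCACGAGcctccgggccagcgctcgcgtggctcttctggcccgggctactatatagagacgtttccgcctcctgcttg
ARRDC4: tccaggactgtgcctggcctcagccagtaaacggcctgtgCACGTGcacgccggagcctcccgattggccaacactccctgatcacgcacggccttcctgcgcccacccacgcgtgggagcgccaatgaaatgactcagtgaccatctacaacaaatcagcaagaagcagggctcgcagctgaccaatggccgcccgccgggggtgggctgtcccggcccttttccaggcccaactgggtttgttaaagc
The element of TXNIP lies between 88 and 72 bases before the start, and neither of its half-sites is identical to CACGTG. The E-box of ARRDC4 lies between 210 and 205 bases before the start.

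The RefSeq table held 23 promoter windows of 300 bases (250 before and 50 after a start) for the 10 genes, and 35116 windows in all. Searched on both strands, the pair of half-sites was found in 1 of the 23 windows, of TXNIP, and in 0.421% of all windows. The E-box CACGTG was found in 4 of the 23 windows, 1 each of ARRDC4, HK2, PFKFB3 and LDHA, and in 7.26% of all windows. The shorter motif ACGTG or GCGTG, the core to which hypoxia-inducible factors bind and which overlaps CACGTG, was found in 16 of the 23 windows, with at least 1 in each gene, and in 48.4% of all windows. These matches describe letters in a window and not bound sites.

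Total counts per library ran from 39465746 to 100161560. The libraries of the 2 experiments differed in how counts depended on the GC content of the gene: the slope was 0.425 to 1.15 in the OSMI-2 experiment and -0.542 to -0.236 in the TMG experiment (log2 CPM per 10 percentage points of GC, across genes). In the DMSO 6 h group of the OSMI-2 experiment, library a stood apart from b and c, with a slope of 0.425 against 1.144 and 1.077. The same group had 0.756% to 1.214% of its counts in detained introns, against 0.232% to 0.328% in the other libraries of that experiment. Values are therefore compared within an experiment, and results that rest on library a are also given without it. Of the 5 markers of the HEK293 line, LIN28B, NEFL, PAX2, LHX1 and NEFM, all were counted, with a summed level, in counts-per-million of the library total (CPM), of 25.1 to 143.8. Most of that sum was LIN28B (4.06 to 113.1 CPM) and NEFL (15.7 to 31.3 CPM), and the other 3 were at most 4.20 CPM. Markers of other cells were counted as follows: fibroblast 2 of 4 markers (6.53 to 20.8 CPM, of which COL1A1 6.28 to 20.4 CPM, above PAX2, NEFM and LHX1), blood 1 of 4 (0.456 to 4.66 CPM), skeletal muscle 2 of 3 (0.324 to 1.58 CPM) and hepatocyte 0 of 3. In bulk RNA, fewer cells of a type and less RNA per cell cannot be told apart.

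LDHA was by far the most abundant of the 10 messages and the 2 arrestins and PFKFB4 the least. Per kilobase of counted sequence, the mean level in the DMSO 2 h group of the TMG experiment (n = 3) was 475 CPM for LDHA, 47 for PFKP, 43.3 for HK1, 28.6 for SLC2A1 and 23.2 for HK2. It was 13.2 for PFKFB3, 11.4 for MLXIP, 5.87 for TXNIP, 4.84 for ARRDC4 and 2.90 for PFKFB4. In the DMSO 2 h group of the OSMI-2 experiment it was 418 CPM for LDHA, 71.7 for HK1, 70.1 for PFKP, 22.1 for SLC2A1 and 11.5 for PFKFB3. It was 8.76 for MLXIP, 8.23 for HK2, 3.85 for PFKFB4, 1.51 for TXNIP and 0.952 for ARRDC4. The order was set by gene far more than by treatment, but in DMSO at 2 h TXNIP, ARRDC4 and HK2 stood lower and PFKP and HK1 higher in the OSMI-2 experiment. At 6 h the order of the experiments was the reverse for TXNIP, with a mean of 6.54 CPM in DMSO of the OSMI-2 experiment and 3.37 CPM in that of the TMG experiment. The 2 experiments also differ in the GC dependence given above, whose part in these differences was not tested.

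Changes are given as log2 fold changes from edgeR's quasi-likelihood test on the gene counts, with p-values adjusted by the Benjamini-Hochberg method over all genes tested, and a gene is said to have risen or fallen where the adjusted p was below 0.05. The background share of all genes called was 0% for OSMI-2 at 2 h, 4.94% for OSMI-2 at 6 h, 7.91% for TMG at 2 h and 6.03% for TMG at 6 h. For DMSO at 6 h against 2 h it was 18.5% in the OSMI-2 experiment and 45.9% in the TMG experiment. Of the 10 genes, 0, 1, 1 and 1 were called in the 4 treatment comparisons in that order, and 2 and 6 in the DMSO comparisons. The treatment counts are as small as a share near the background gives. Most genes called after TMG were lower, 824 of 978 at 2 h and 586 of 730 at 6 h. The 6 called genes of the TMG experiment are to be read against a background of 45.9%. Their median log2 fold change was 0.07, 0.30, -0.02 and -0.14 in the treatment comparisons and -0.17 and 0.02 in the DMSO comparisons, and the same over all genes was -0.01, 0.15, -0.03, -0.03, -0.25 and -0.07. The treated and DMSO comparisons of an experiment share DMSO libraries, so their values are set side by side and not related to each other. On library totals the groups did not overlap for 3.96% and 45.5% of all tested genes for OSMI-2 at 2 h and 6 h. The share was 26.6% and 29% for TMG at 2 h and 6 h. For DMSO at 6 h against 2 h it was 40.6% in the OSMI-2 and 54% in the TMG experiment. Of the 10 genes this held for 0, 4, 1, 5, 6 and 6 in that order. Later statements that libraries of 2 groups lay apart are to be read against these shares.

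The scaling of the libraries mattered at 6 h in the OSMI-2 experiment. With the trimmed-mean (TMM) factors used here the median gene had a log2 fold change of 0.15 for OSMI-2 against DMSO at 6 h, and with library totals alone it was -0.24. For DMSO at 6 h against 2 h it was -0.25 and 0.32. For these comparisons the change relative to the median gene, which is nearly the same under both scalings, is given beside the fitted value.

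**Figure D1:**
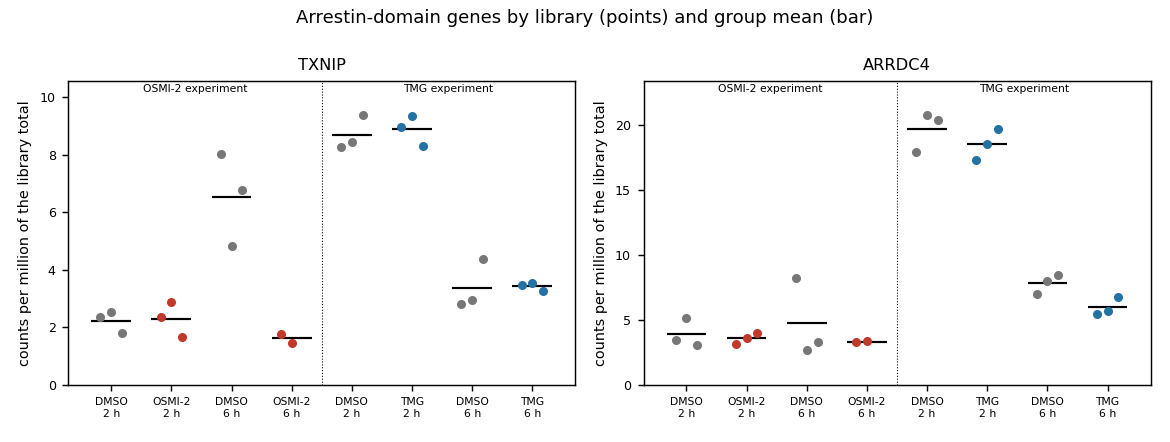
TXNIP and ARRDC4 levels in CPM (library total as scale, linear axis from 0) in each of the 8 groups; points are libraries and bars are group means. TXNIP was high at 6 h of DMSO in the OSMI-2 experiment and at 2 h in the TMG experiment, and ARRDC4 was 17.4 to 20.8 CPM at 2 h in the TMG experiment and at most 8.43 CPM elsewhere.

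TXNIP, the thioredoxin-binding arrestin that restrains glucose uptake, was the one gene of the 10 that fell after 6 h of OSMI-2. Its level was 1.76 and 1.46 CPM in OSMI-2 libraries a and b and 8.03, 4.82 and 6.78 CPM in the DMSO 6 h libraries a, b and c. Both treated libraries lay below all 3 controls. The log2 fold change was -1.64 (SE 0.395, adjusted p = 0.0071), or -1.79 relative to the median gene. The DMSO 2 h libraries of that experiment had 2.36, 2.52 and 1.80 CPM and the OSMI-2 2 h libraries 2.35, 2.87 and 1.66 CPM. The low values at 6 h of OSMI-2 therefore stood near those of both groups at 2 h, and the group that stood apart was DMSO at 6 h. The call was lost with library totals alone (adjusted p = 0.0714), with a replicate block by column letter (0.337), without DMSO 6 h library c (0.0871) and without OSMI-2 library a (0.406) or b (0.808), where 1 treated library is left and is assumed to vary like the controls. The fold change stayed between -2.02 and -1.45 under all alternatives, and without DMSO 6 h library a it was -1.57 (adjusted p = 0.00437).

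In the DMSO libraries TXNIP went in opposite directions with time in the 2 experiments. With OSMI-2's controls it rose from 2.23 ± 0.381 CPM at 2 h to 6.54 ± 1.62 CPM at 6 h (SD, n = 3 each), with a log2 fold change of 0.995 (SE 0.307, adjusted p = 0.023), or 1.25 relative to the median gene. With TMG's controls it was 8.26, 8.44 and 9.38 CPM at 2 h and 2.79, 2.94 and 4.37 CPM at 6 h, and fell by 1.43 on the log2 scale (SE 0.14, adjusted p = 1.89e-08). In neither experiment did the ranges at 2 h and 6 h overlap. The difference between the 2 changes was itself tested with the 4 DMSO groups in 1 fit and came to 2.27 (SE 0.308, adjusted p = 7.04e-04), or 2.56 relative to the median gene. That SE is about the same as for the change in the OSMI-2 experiment alone (0.307), so this adjusted p may be too small. The rise in the OSMI-2 experiment lost its call when any of the 3 DMSO 2 h libraries (adjusted p = 0.103 without a, 0.065 without b and 0.111 without c) or 6 h library c (0.0802) was left out. The share of counts in detained introns moved with it, as given above, and its part in the result was not tested.

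TMG left TXNIP where the time-matched DMSO libraries were. The levels were 8.97, 9.35 and 8.31 CPM after 2 h of TMG and 3.47, 3.55 and 3.26 CPM after 6 h, within the DMSO range at each time. The log2 fold changes were -0.01 (SE 0.088) at 2 h and 0.04 (SE 0.162) at 6 h, with adjusted p = 0.967 and 0.927. At 2 h OSMI-2 gave 0.07 (SE 0.258, adjusted p = 1).

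ARRDC4, the paralogue of TXNIP with the same arrestin fold, had a wide spread in the OSMI-2 experiment and a tight one in the TMG experiment. In the TMG experiment it was 17.9, 20.8 and 20.4 CPM in DMSO at 2 h and 6.99, 8.02 and 8.43 CPM at 6 h. Every library at 6 h lay below every one at 2 h, and ARRDC4 fell by 1.40 on the log2 scale (SE 0.097, adjusted p = 6.87e-11). After TMG it was 17.4, 18.6 and 19.8 CPM at 2 h and 5.49, 5.70 and 6.73 CPM at 6 h. The TMG 6 h libraries all lay below the DMSO 6 h libraries, but the fold change of -0.38 (SE 0.111) did not pass the threshold, with an adjusted p of 0.0519. It passed with library totals alone (0.0459), with a replicate block by column letter (0.0202), with the GC trend of each library removed (0.00694) and without DMSO 6 h library a (0.00771).

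ARRDC4 in the OSMI-2 experiment was 3.47, 5.12 and 3.04 CPM in DMSO at 2 h and 8.22, 2.70 and 3.31 CPM at 6 h. Library a at 6 h was the high one and the other 2 lay within or below the range at 2 h. The time change was -0.33 (SE 0.326, adjusted p = 0.499), or -0.08 relative to the median gene, with all libraries and -0.76 (adjusted p = 0.0233) without library a. After OSMI-2 it was 3.12, 3.61 and 3.98 CPM at 2 h and 3.29 and 3.35 CPM at 6 h. These lay within the range of the time-matched DMSO libraries, and the fold changes were -0.11 (SE 0.211, adjusted p = 1) and -0.07 (SE 0.376, adjusted p = 0.932), the latter -0.22 relative to the median gene. At 6 h this rests on DMSO library a: without it OSMI-2 library a lay within the range of the other DMSO libraries and b above it, and the fold change was 0.44 (SE 0.189, adjusted p = 0.1).

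MLXIP, the glucose-responsive transcription factor itself, did not pass the threshold in any comparison. It stayed between 42.9 and 54.3 CPM in all 12 libraries of the TMG experiment. Its level in the OSMI-2 experiment was 32.9, 37.6 and 39.7 CPM in DMSO at 2 h, 55.2, 69.0 and 56.1 CPM in DMSO at 6 h, and 58.2 and 69.0 CPM after 6 h of OSMI-2. On library totals the 6 h libraries were thus all above the 2 h libraries, but on the fitted scale the time change was 0.17 (SE 0.251, adjusted p = 0.664), or 0.42 relative to the median gene. The 6 h OSMI-2 value was 0.44 (SE 0.295, adjusted p = 0.374), or 0.29 relative to the median gene. MLXIP passed in DMSO over time with library totals alone in the OSMI-2 experiment (0.71, adjusted p = 0.035) and with the GC trend removed in the TMG experiment (0.18, adjusted p = 0.0193), and for OSMI-2 at 6 h with all libraries in 1 fit (0.64, adjusted p = 0.00523).

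**Figure D2:**
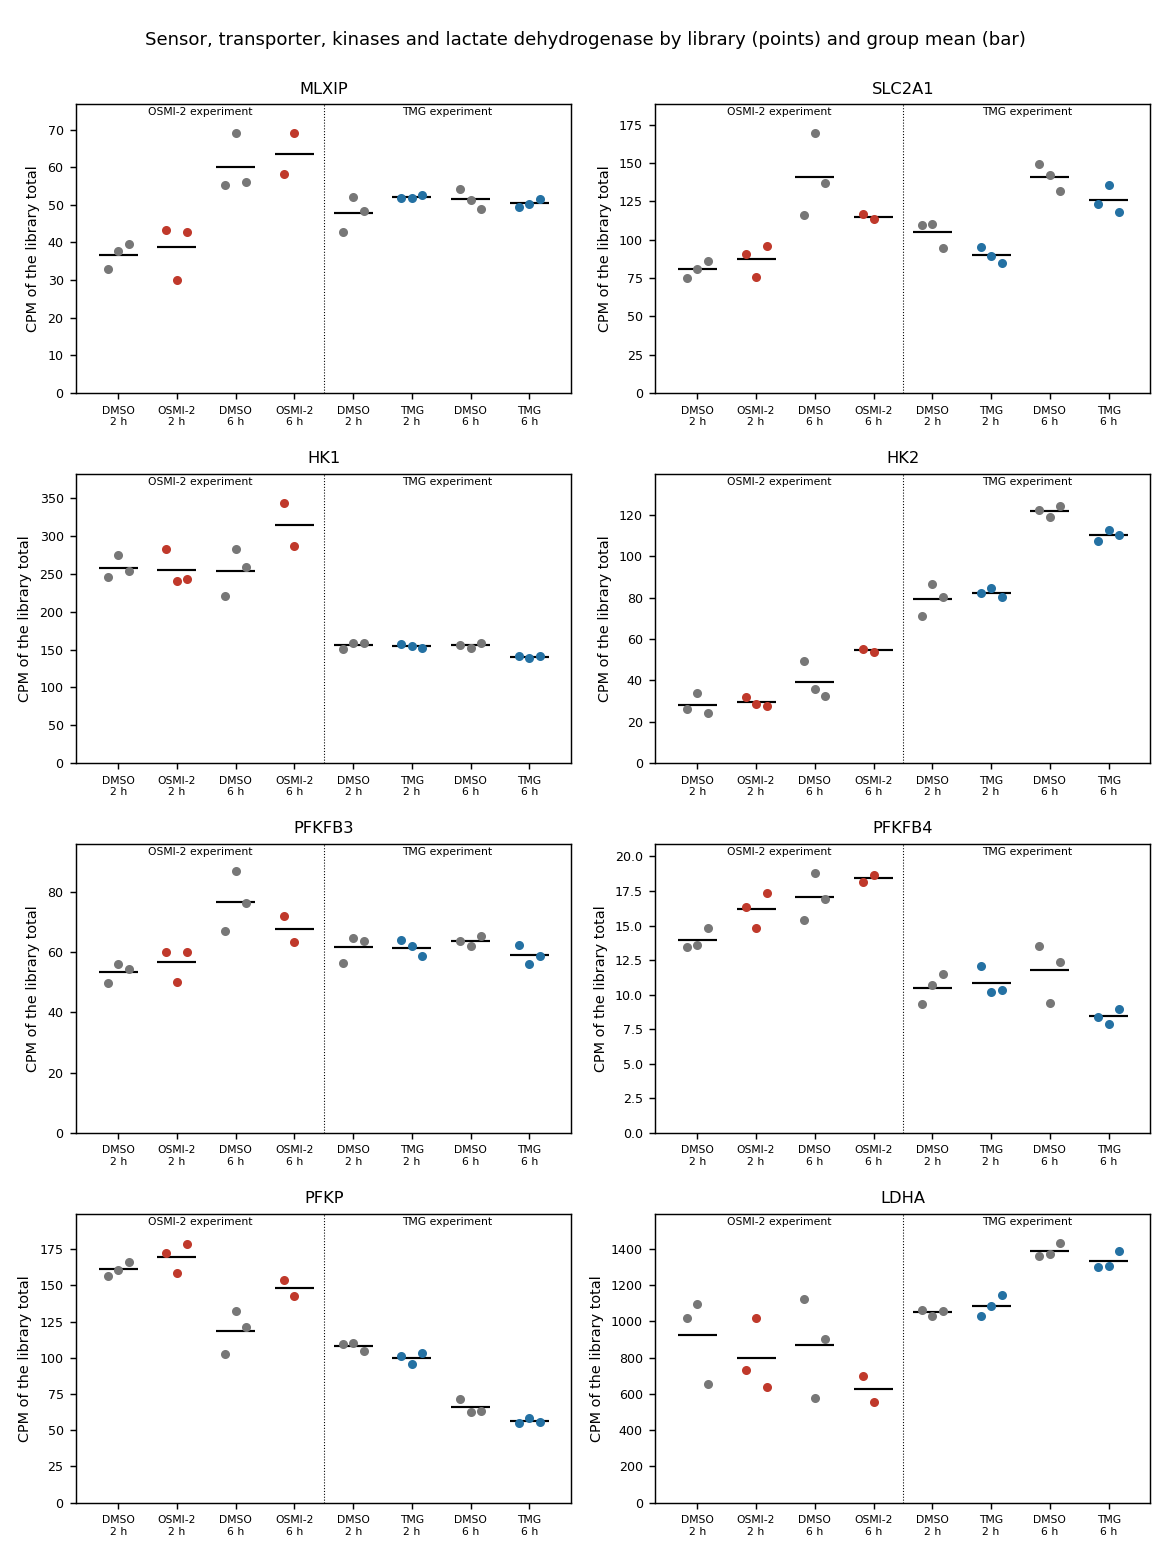
Levels of the other 8 genes in CPM (library total as scale, linear axes from 0) by group; points are libraries and bars are group means. HK2 and LDHA were higher and PFKP lower at 6 h than at 2 h in the TMG experiment, in DMSO and TMG libraries alike, and LDHA spread widely within groups of the OSMI-2 experiment.

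SLC2A1, the gene of the carrier GLUT1, rose with time in DMSO of the TMG experiment and fell after 2 h of TMG. In the TMG experiment it was 109.3, 110.1 and 94.95 CPM in DMSO at 2 h and 149.2, 142.3 and 131.9 CPM at 6 h, and rose by 0.37 (SE 0.079, adjusted p = 5.33e-04). After 2 h of TMG it was 95.2, 89.6 and 84.9 CPM. On library totals these ranges overlapped by a hair, with DMSO library c just under TMG library a, and SLC2A1 fell by 0.26 on the log2 scale (SE 0.06, adjusted p = 0.00711). That call was lost when all 23 libraries were fitted together (adjusted p = 1) and without TMG library c (0.0699). After 6 h of TMG it was 123.2, 135.8 and 118.0 CPM, with a fold change of -0.16 (SE 0.071, adjusted p = 0.182).

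SLC2A1 in the OSMI-2 experiment was 75.4, 80.7 and 86.4 CPM in DMSO at 2 h and 116.0, 169.6 and 136.8 CPM at 6 h. The fitted change was 0.27 (SE 0.26, adjusted p = 0.481), or 0.52 relative to the median gene, and it passed without 6 h library a (0.51, adjusted p = 0.0274) and with library totals alone (0.80, adjusted p = 0.0243). After OSMI-2 it was 90.6, 75.9 and 96.1 CPM at 2 h and 116.6 and 113.3 CPM at 6 h. The fold changes of 0.11 (SE 0.122, adjusted p = 1) and 0.05 (SE 0.306, adjusted p = 0.939) did not pass the threshold, and the second is negative relative to the median gene (-0.10) and on library totals (-0.29). An RNA from the opposite strand, SLC2A1-AS1, overlaps the gene and has its own rows in the tables; whether strand was used in counting is not given in the sources used here, so reads of the 2 cannot be assumed to be separated.

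The hexokinases catalyse the first step, the phosphorylation of glucose, HK1 as the constitutive form and HK2 as the form that growth signals induce. HK2 rose with time in the TMG experiment, from 70.95, 86.6 and 80.3 CPM in DMSO at 2 h to 122.5, 119.3 and 124.4 CPM at 6 h. The ranges were well apart, and the log2 fold change was 0.57 (SE 0.075, adjusted p = 1.82e-06). After TMG HK2 was 82.3, 84.6 and 80.4 CPM at 2 h and 107.7, 112.6 and 110.6 CPM at 6 h, with fold changes of 0.02 (SE 0.057, adjusted p = 0.892) and -0.14 (SE 0.061, adjusted p = 0.177).

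HK2 in the OSMI-2 experiment was 26.2, 33.9 and 24.2 CPM in DMSO at 2 h, 49.4, 35.7 and 32.3 CPM in DMSO at 6 h and 55.2 and 53.7 CPM after 6 h of OSMI-2. Both treated libraries were above all controls at 6 h, and the fold change was 0.87 (SE 0.298), or 0.72 relative to the median gene. It did not pass the threshold (adjusted p = 0.0637). Without DMSO 6 h library a it was 0.98 (adjusted p = 0.0023), and with the GC trend removed also 0.98 (adjusted p = 0.00819). It passed in 4 of 15 alternatives, and with library totals alone it was 0.48 and did not pass. The time change in DMSO was -0.09 (SE 0.252, adjusted p = 0.824), and its sign turned relative to the median gene (0.16) and on library totals (0.48).

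HK1 was steady in the TMG experiment, at 150.3 to 159.3 CPM in the 9 libraries of DMSO at both times and of TMG at 2 h. After 6 h of TMG it was 141.2, 139.1 and 141.9 CPM, below all of these, with a fold change of -0.14 (SE 0.059, adjusted p = 0.168). HK1 in the OSMI-2 experiment was at 220.8, 282.6 and 259.7 CPM in DMSO at 6 h and 343.4 and 286.5 CPM after 6 h of OSMI-2. The fold change was 0.66 (SE 0.319, adjusted p = 0.195), or 0.51 relative to the median gene, and without DMSO 6 h library a it was 0.53 (adjusted p = 0.0207). With the GC trend removed it was 0.72 (adjusted p = 0.00691). It passed in 3 of 15 alternatives, and with library totals alone it was 0.31 and did not pass. The time change of HK1 in DMSO was -0.55 (SE 0.267, adjusted p = 0.14), or -0.30 relative to the median gene. With the GC trend removed this change was -0.62 (adjusted p = 0.00152).

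PFKP, the platelet-type subunit of phosphofructokinase, was the entry enzyme that fell with time in DMSO in both experiments. In the TMG experiment it went from 109.7, 109.9 and 104.6 CPM at 2 h to 71.5, 62.3 and 63.3 CPM at 6 h, and fell by 0.77 on the log2 scale (SE 0.079, adjusted p = 4.14e-08). In the other it went from 156.6, 160.7 and 166.5 CPM to 102.3, 132.4 and 121.6 CPM, and fell by 0.97 (SE 0.262, adjusted p = 0.0111), or by 0.72 relative to the median gene. In both, every 6 h library lay below every 2 h library. The call in the OSMI-2 experiment was lost with library totals alone (-0.44, adjusted p = 0.082), with TMM over genes only (0.0593) and without DMSO 2 h library a (0.0791) or c (0.0556).

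After 6 h of OSMI-2 PFKP was 154.0 and 143.0 CPM, above the 3 DMSO libraries, with a fold change of 0.67 (SE 0.303, adjusted p = 0.163), or 0.52 relative to the median gene. Without DMSO 6 h library a it was 0.53 (adjusted p = 0.0109), and with the GC trend removed also 0.53 (adjusted p = 0.0111). It passed in 3 of 15 alternatives, and with library totals alone it was 0.32 and did not pass. TMG libraries were 101.6, 95.4 and 103.3 CPM at 2 h and 55.2, 58.2 and 55.5 CPM at 6 h. At both times they lay just below their controls, with fold changes of -0.15 (SE 0.053, adjusted p = 0.0775) and -0.22 (SE 0.076, adjusted p = 0.0915).

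PFKFB4, one of the 2 bifunctional enzymes that set the level of the phosphofructokinase activator, was the one gene of the 10 that fell after 6 h of TMG. Its level was 8.42, 7.91 and 8.98 CPM after TMG and 13.5, 9.43 and 12.4 CPM in DMSO. The ranges did not overlap, though DMSO library b was close, and PFKFB4 fell by 0.48 on the log2 scale (SE 0.126, adjusted p = 0.0338). The call was lost when all libraries were fitted together (adjusted p = 0.742), without DMSO library c (0.106) and without TMG library a (0.0781), b (0.163) or c (0.0561). At 2 h the TMG libraries had 12.1, 10.2 and 10.3 CPM and the DMSO libraries 9.33, 10.7 and 11.5 CPM, with a fold change of 0.01 (SE 0.088, adjusted p = 0.957). All 11 libraries of the OSMI-2 experiment had between 13.4 and 18.8 CPM, and the OSMI-2 fold changes were 0.21 (SE 0.138, adjusted p = 1) at 2 h and 0.46 (SE 0.335, adjusted p = 0.413) at 6 h, the latter 0.32 relative to the median gene. Over time in DMSO of that experiment it was -0.25 (adjusted p = 0.549), or 0.01 relative to the median gene.

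PFKFB3, the other of these enzymes and the one with the higher kinase activity, moved little. In the TMG experiment it lay between 55.95 and 64.9 CPM in all 12 libraries. In the OSMI-2 experiment it was 49.8, 56.2 and 54.6 CPM in DMSO at 2 h, 67.0, 87.0 and 76.4 CPM in DMSO at 6 h and 72.0 and 63.6 CPM after 6 h of OSMI-2. None of its fold changes passed the threshold, the time change being -0.01 (SE 0.251, adjusted p = 0.981) and 0.24 relative to the median gene, and the 6 h OSMI-2 value 0.17 (SE 0.297, adjusted p = 0.771) and 0.02 relative to it.

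LDHA, the subunit of lactate dehydrogenase that favours lactate production, rose with time in the TMG experiment from 1060, 1031 and 1059 CPM in DMSO at 2 h to 1359, 1370 and 1430 CPM at 6 h. The log2 fold change was 0.34 (SE 0.069, adjusted p = 3e-04), and the call was lost when all libraries were fitted together (0.0899). After TMG it was 1031, 1082 and 1146 CPM at 2 h and 1299, 1304 and 1389 CPM at 6 h, close to DMSO at each time, with fold changes of 0.01 (SE 0.053, adjusted p = 0.943) and -0.05 (SE 0.064, adjusted p = 0.678).

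LDHA in the OSMI-2 experiment differed more between libraries of a group than between groups. It was 1019, 1098 and 653.1 CPM in DMSO at 2 h, 730.7, 1020 and 640.1 CPM after 2 h of OSMI-2, 1125, 579.4 and 904.0 CPM in DMSO at 6 h and 699.6 and 555.1 CPM after 6 h of OSMI-2. The GC content of LDHA is 44.0%, with TXNIP at 43.9% and ARRDC4 at 43.4%, and that of the other 7 genes is 51.2% to 57.9%. On library totals DMSO 6 h library a, with the lowest GC slope, had the highest TXNIP, ARRDC4 and LDHA of all the libraries of that experiment. Its TMM factor was also the largest of them (1.462), so on the fitted scale these levels are lower relative to the other libraries. The part of GC dependence in the levels of library a was not tested. The time change of LDHA in DMSO was -0.65 (SE 0.295, adjusted p = 0.115), or -0.40 relative to the median gene, and without 6 h library a it was -0.71 (adjusted p = 0.0396). With the GC trend removed it was -0.67 (adjusted p = 0.0152). For OSMI-2 at 6 h it was -0.08 (SE 0.349, adjusted p = 0.914), or -0.23 relative to the median gene.

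**Figure D3:**
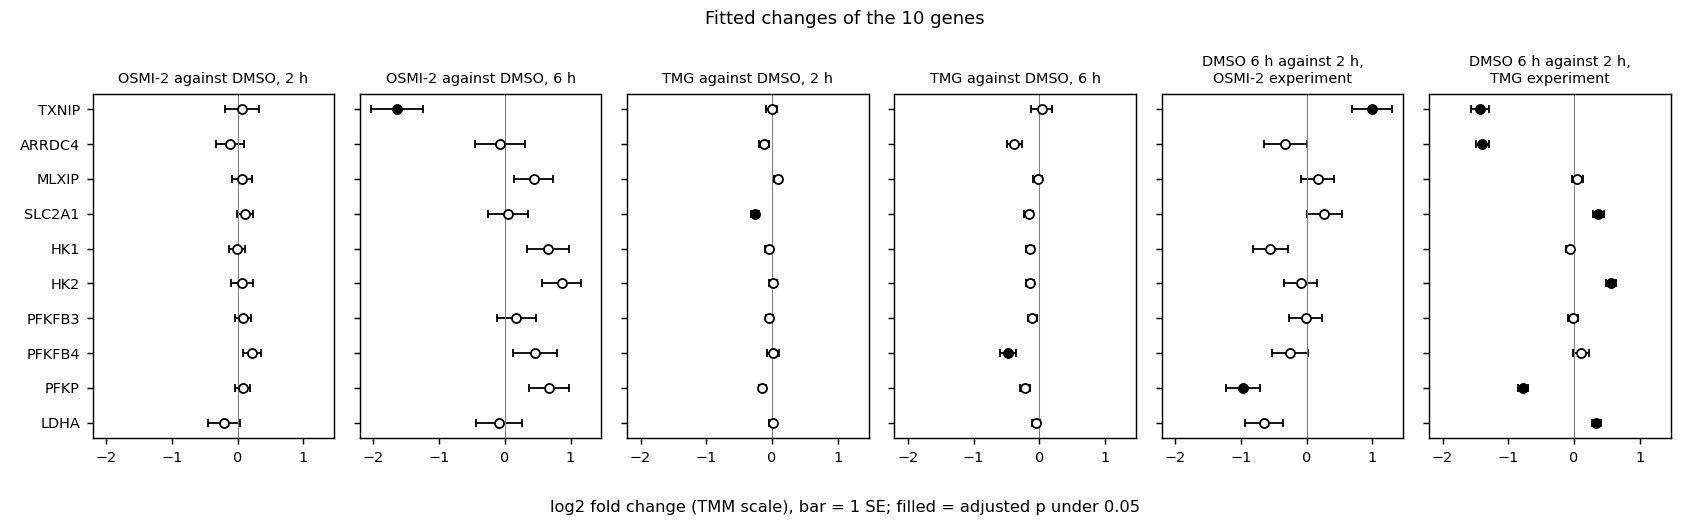
Log2 fold changes of the 10 genes in the 6 comparisons from edgeR (TMM scale); bars are standard errors and filled points have an adjusted p below 0.05. TXNIP for OSMI-2 against DMSO at 6 h, and TXNIP and ARRDC4 over time in DMSO of the TMG experiment, lie farthest from 0.

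Differences between effects were tested in their own fits. The fits across the 2 experiments give each gene 1 spread estimate for both. For the 5 genes that differed at 6 h, the SE of the difference was below that of the OSMI-2 effect alone. For HK2 it was 0.208 against 0.298. The adjusted p-values of the fits across the experiments may therefore be too small. Over all genes the share called was 0.111% for the OSMI-2 effect at 6 h against 2 h, 0.0242% for the TMG effect at 6 h against 2 h, and 0% for the OSMI-2 effect against the TMG effect at 2 h. It was 19.9% for the OSMI-2 effect against the TMG effect at 6 h and 13.2% for the change in DMSO in the OSMI-2 against the TMG experiment. Of the 10 genes 0, 0, 0, 5 and 3 were called in that order, and in the first 3 of these fits 2, 1 and 1 had an unadjusted p below 0.05. For OSMI-2 at 2 h, where edgeR called 0 of 12343 genes, 160 genes and 0 of the 10 had an unadjusted p below 0.05, and DESeq2 called 1 gene and 0 of the 10. The fold changes of the 10 genes in that comparison lay between -0.20 (LDHA) and 0.21 (PFKFB4).

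For TXNIP the OSMI-2 effect was lower than the TMG effect at 6 h, by 1.88 relative to the median gene. HK2, PFKFB4, PFKP and HK1 differed the other way, with 0.81, 0.74, 0.69 and 0.60 relative to the median gene, which itself stood 0.36 higher for OSMI-2. The count of 5 moved with the scaling and with single libraries. The share of 19.9% of all genes is that of the reported fit. Shares for the refits of this paragraph are not given here, so their counts are not results particular to the 10 genes. It was 1 with library totals alone (TXNIP) and 2 with TMM over genes only. Of the 6 h libraries, leaving out DMSO library a of the OSMI-2 experiment gave 10, OSMI-2 library a 2 and b 0, DMSO library a of the TMG experiment 2 and c 3, and TMG library a, b or c 2. The difference for TXNIP lost its call only without OSMI-2 library b (adjusted p = 0.094), out of 20 alternatives. For TXNIP the OSMI-2 effect at 6 h against that at 2 h was -1.75 (SE 0.404, adjusted p = 0.111), so that the effect at 6 h was not shown to differ from that at 2 h. That difference passed when all libraries were fitted together (adjusted p = 0.0022), with the GC trend removed (0.00608) and without DMSO 6 h library a (0.0196) or b (0.0326). In the change with time in DMSO, HK2 and LDHA were lower in the OSMI-2 than in the TMG experiment, by 0.53 and 0.85 relative to the median gene. The count of 3 became 6 without DMSO 6 h library a of the OSMI-2 experiment. It became 1 without DMSO 2 h library a of that experiment, any of the DMSO 2 h libraries of the TMG experiment or DMSO 6 h library c of the latter, and that of TXNIP was called in all 21 alternatives.

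The bins within the genes were compared with limma on the ratio of a bin to the rest of its gene. The share of all bins called was 0.00167% for OSMI-2 at 2 h, 5.68% for OSMI-2 at 6 h, 0.145% for TMG at 2 h, 0.0151% for TMG at 6 h, and 10% and 4.53% for DMSO at 6 h against 2 h in the OSMI-2 and TMG experiments. Of the bins of the 10 genes, 142 to 147 could be tested, and 0, 4, 0, 0, 13 and 11 were called in that order. In the 3 comparisons with 0 calls, 3, 9 and 3 bins had an unadjusted p below 0.05, and the authors' deposited table, from a test of bin usage, gives 0 of their bins an adjusted p below 0.05. In the OSMI-2 6 h comparison, the authors' deposited table gives 6. The count of 13 was 6 without DMSO 6 h library a and 5 without library b, and that of 11 was 7 without DMSO 2 h library c.

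Of the 10 genes 5 hold detained introns, 6 in all, with coordinates on hg19: 1 in HK1 (chr10:71139852-71142242), 2 in MLXIP (chr12:122620214-122621840 and chr12:122623486-122625500), 1 in PFKFB3 (chr10:6259155-6261531), 1 in PFKFB4 (chr3:48572101-48572944, minus strand) and 1 in PFKP (chr10:3162237-3172010). The others are on the plus strand. Over all detained introns the share called was 81.2% for OSMI-2 at 6 h, with a median log2 ratio of -1.63, 84.1% for DMSO over time in the OSMI-2 experiment (1.67) and 18.2% for DMSO over time in the TMG experiment (0.40). The 4 bins of the 10 genes called for OSMI-2 at 6 h were all detained introns and all lower, and the introns of PFKFB3 and PFKFB4 were not called. In DMSO over time those of PFKP, MLXIP and HK1 rose in the OSMI-2 experiment and, of the 4 that could be tested, only that of PFKP in the TMG experiment.

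The intron of PFKP was the best counted of the 6. Its counts equalled 2.77% and 2.99% of the gene's other counts after 6 h of OSMI-2 and 7.42% to 11.6% in DMSO, a log2 ratio of -1.70 (SE 0.145, adjusted p = 4.74e-05). In DMSO over time it rose from between 2.04% and 2.18% in the OSMI-2 experiment, by 2.13 (SE 0.132, adjusted p = 5.29e-06), and from between 1.82% and 2.32% to between 4.37% and 6.69% in the TMG experiment, by 1.29 (SE 0.144, adjusted p = 7.41e-05). The denominator of this ratio is the other counts of PFKP, which fell over the same time. The level of the intron itself went from between 3.403 and 3.497 CPM to between 9.01 and 12.7 CPM in the OSMI-2 experiment and from between 2.00 and 2.55 CPM to between 2.77 and 4.17 CPM in the TMG experiment. After TMG it was 2.27% to 2.78% at 2 h and 5.35% to 7.45% at 6 h, with ratios of 0.32 (adjusted p = 0.459) and 0.34 (adjusted p = 0.849).

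The detained introns of MLXIP and HK1 were lower after 6 h of OSMI-2 too, by log2 ratios of -1.64 (SE 0.184, adjusted p = 2.15e-04) and -1.83 (SE 0.253, adjusted p = 8.88e-04) for those of MLXIP and -2.30 (SE 0.308, adjusted p = 6.88e-04) for that of HK1. The counts behind the HK1 value are few, 6 and 11 after OSMI-2 and 23 to 26 in DMSO. Over time in DMSO of the OSMI-2 experiment all 3 rose, by 1.29 (adjusted p = 0.002), 1.47 (adjusted p = 0.00223) and 1.31 (adjusted p = 0.0183; 0.0866 and 0.0557 without DMSO 6 h library a or b and 0.0616 without 2 h library c). The intron of PFKFB3 had -1.28 (SE 0.411, adjusted p = 0.128) for OSMI-2 at 6 h, and that of PFKFB4 0.01 (SE 0.469, adjusted p = 0.995) with 3 to 17 counts a library. The value of PFKFB3 passed without DMSO 6 h library c (-1.64, adjusted p = 0.0217), without OSMI-2 library b (-1.90, adjusted p = 0.0431) and with the replicate block (-1.64, adjusted p = 0.00459), and was -0.66 (adjusted p = 0.747) without OSMI-2 library a. Over time in DMSO of the OSMI-2 experiment PFKFB3's was 0.87 (adjusted p = 0.0992, and 0.011 without 6 h library c). In the TMG experiment the introns of MLXIP had 0.50 (adjusted p = 0.291) and 0.28 (adjusted p = 0.655) over time and that of PFKFB3 0.16 (adjusted p = 0.833), and those of HK1 and PFKFB4 had too few counts to be tested.

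**Figure D4:**
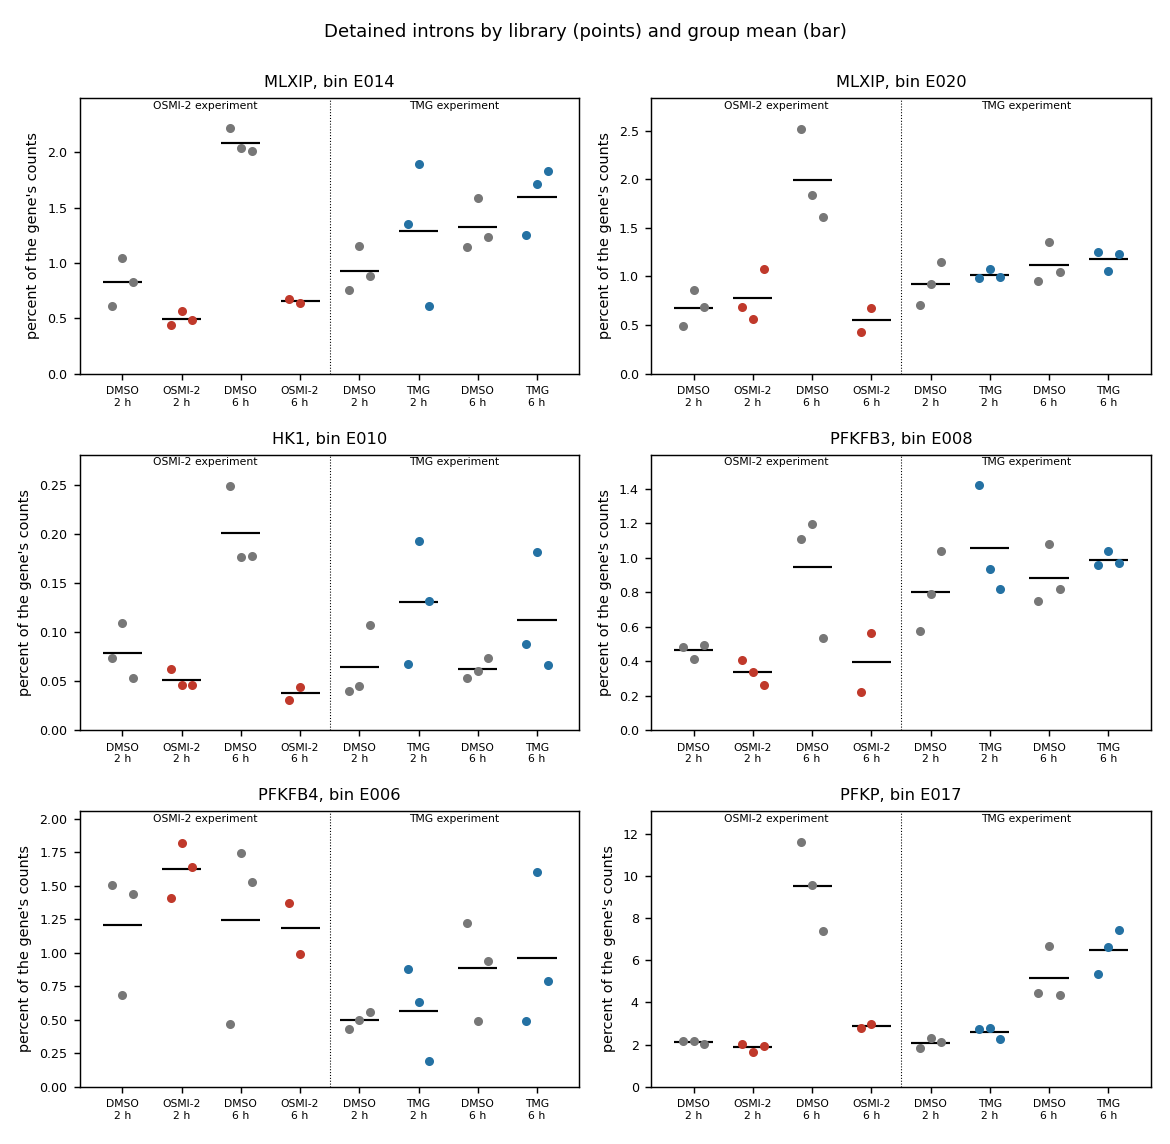
Detained introns of the 10 genes as counts in percent of their gene's other counts, by group (linear axes from 0); points are libraries and bars are group means. The intron of PFKP reached 7.42% to 11.6% in DMSO at 6 h of the OSMI-2 experiment and stood at 2.77% and 2.99% after OSMI-2.

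The other bins called in the DMSO comparisons were mostly at the ends of the genes. The first bin of ARRDC4 in the TMG experiment fell relative to the rest of the gene, from between 5.52% and 6.05% of the gene's counts at 2 h to between 1.65% and 3.18% at 6 h (log2 ratio -1.22, SE 0.221, adjusted p = 0.0034), and that of MLXIP by 0.59 (SE 0.111, adjusted p = 0.00452). In LDHA the first and second bins fell by 0.31 (adjusted p = 2.67e-04) and 0.17 (adjusted p = 0.00397), and the last rose by 0.18 (adjusted p = 0.0061, but 0.0695 without DMSO 2 h library c and 0.0525 without 6 h library b). In SLC2A1, on the minus strand, the bin at the 3′ end rose by 0.22 (adjusted p = 0.00425). In the OSMI-2 experiment the ends went the other way: the last bin of LDHA fell by 0.27 (adjusted p = 0.0183) and the first rose by 0.28 (adjusted p = 0.0119), the last bin of MLXIP fell by 0.94 (SE 0.149, adjusted p = 0.00159), that of PFKP by 0.47 (SE 0.087, adjusted p = 0.00442), that of SLC2A1 by 0.33 (SE 0.068, adjusted p = 0.009) and that of HK1 by 0.33 (SE 0.081, adjusted p = 0.0227). Without DMSO 6 h library a the adjusted p was 0.0676 and 0.0838 for the first and last bins of LDHA, and without b it was 0.0667 and 0.0637. For the bin of SLC2A1 it was 0.0594 without b, and for that of HK1 0.0683, 0.0912 and 0.0555 without a, b or c.

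A measure of the whole library was set beside these ends. Over 803 genes with a constitutive first and last exon, the median log2 ratio of the last to the first bin was 1.73 to 1.81 in DMSO at 2 h and 1.96 to 2.25 at 6 h in the TMG experiment. In the OSMI-2 experiment it was 2.70 to 3.07 in DMSO at 2 h and 2.57 to 2.83 at 6 h. Its part in the changes at the gene ends was not tested.

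**Figure D5:**
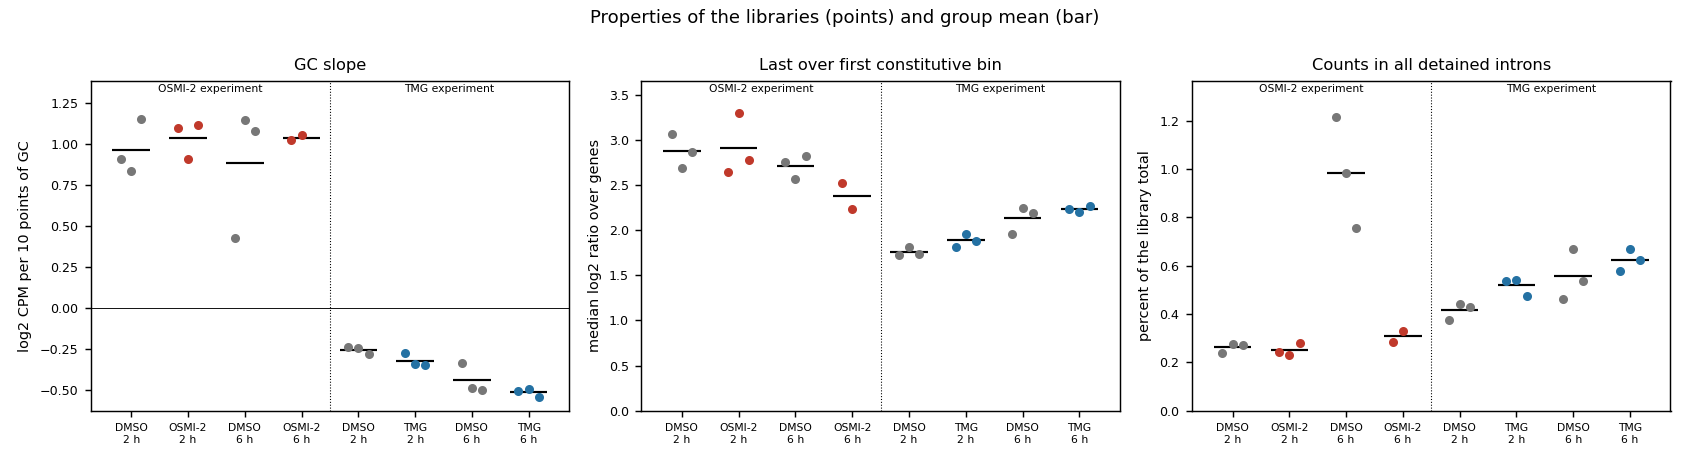
GC slope (log2 CPM per 10 percentage points of GC), median log2 ratio of last to first constitutive bin and share of counts in all detained introns (percent), by group; points are libraries and bars are group means. DMSO 6 h libraries of the OSMI-2 experiment had 0.756% to 1.214% of counts in detained introns, and library a of that group had the lowest GC slope of the experiment.

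The enzymes that set O-GlcNAc themselves gave the frame for these values. OGT fell after 6 h of OSMI-2 by 2.00 relative to the median gene (fitted -1.86, SE 0.335, adjusted p = 3.46e-04), from a mean of 226.2 CPM in DMSO to 46.3 CPM, and the gene of OGA, named MGEA5 in the tables, fell by 2.08 (fitted -1.93, SE 0.326, adjusted p = 1.36e-04). After 6 h of TMG MGEA5 rose by 0.72 (SE 0.059, adjusted p = 6.01e-06) and OGT fell by 0.48 (SE 0.067, adjusted p = 0.00164). At 2 h neither was called after either inhibitor by edgeR, and MGEA5 had fitted values of -0.63 after OSMI-2 (adjusted p = 1) and 0.14 after TMG (adjusted p = 0.0848). OGT also rose over time in DMSO, by 1.81 (SE 0.287, adjusted p = 1.09e-04; 2.06 relative to the median gene) in the OSMI-2 experiment, where its DMSO 2 h mean was 42.2 CPM, and by 0.60 (SE 0.072, adjusted p = 4.77e-07) in the TMG experiment.

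Lists of other genes around glucose use were counted next, and some share genes. After 2 h of OSMI-2, edgeR called 0 genes of these lists and 0 had an unadjusted p below 0.05, while 1 of the 2 O-GlcNAc enzymes had. For OSMI-2 at 6 h, where 4.94% of all genes were called, the values given are relative to the median gene. Of the other glycolysis enzymes 17 of 25 could be tested and 1 fell, the ADP-dependent glucokinase ADPGK (-1.65). On the branches from glucose 6-phosphate PGLS (0.80), an enzyme of the pentose phosphate pathway, rose. Of 24 hypoxia response genes tested DDIT4 (0.80) rose and VHL (-1.33) fell, and of 15 energy sensing genes DDIT4 rose and PRKAG1, a subunit of the AMP-activated kinase, fell (-1.13). Of 11 sugar and lactate carriers, 9 genes around pyruvate dehydrogenase and 16 genes of the MLX network with thioredoxins and arrestin relatives, 0 were called by edgeR, with 1, 2 and 5 at an unadjusted p below 0.05.

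After TMG the called genes of these lists mostly fell, by small amounts. So did those over all genes, 824 of 978 at 2 h and 586 of 730 at 6 h. At 2 h, where 7.91% of all genes were called, 3 of 11 carriers fell, SLC2A6 (-0.34), BSG (-0.31), the chaperone of lactate carriers, and SLC2A8 (-0.29). On the branches from glucose 6-phosphate 3 of 18 fell, G6PC3 (-0.41), PGLS (-0.21) and SLC37A4 (-0.20), and of the hypoxia list 2 of 24, P4HA2 (-0.23) and P4HA1 (-0.19). Of the glycolysis, pyruvate dehydrogenase, MLX network and energy sensing lists 0 were called at 2 h by edgeR, with 2, 0, 3 and 4 at an unadjusted p below 0.05. At 6 h, where 6.03% of all genes were called, 2 of 11 carriers fell, SLC2A6 (-0.59) and SLC2A4 (-0.55), as did 3 of 18 genes of the branches, PGLS (-0.37), H6PD (-0.29) and G6PC3 (-0.28), 1 of 17 glycolysis enzymes, ENO2 (-0.36), and 1 of 24 hypoxia genes, CA12 (-0.77). Of 16 genes of the MLX network MXI1 rose (0.32) and ARRDC2 (-0.47) and MLX (-0.23), the partner of MLXIP, fell. MXI1 is also in the hypoxia list. Of the pyruvate dehydrogenase and energy sensing lists 0 were called at 6 h by edgeR, with 2 and 5 at an unadjusted p below 0.05.

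Over time in DMSO of the TMG experiment the energy sensing list had 9 of 15 genes higher and 1 lower. The largest rises were those of DDIT4 (1.01), SESN2 (0.79) and SESN3 (0.58), which restrain the growth kinase mTOR, and the one fall that of RPTOR (-0.56), a subunit of its complex. Of 17 glycolysis enzymes 5 rose and 3 fell, led by BPGM (0.38), PKM (0.30) and LDHB (0.25) and by ENO3 (-0.55), ENO2 (-0.27) and PFKL (-0.23). Of 11 carriers 3 rose, SLC2A12 (0.97), SLC2A13 (0.41) and MPC1 (0.31), and 2 fell, SLC2A10 (-0.77) and SLC2A3 (-0.65). Of 10 genes around pyruvate dehydrogenase the kinases PDK2 (-0.41) and PDK1 (-0.27) fell. Of 18 genes of the branches 3 rose and 7 fell, led by PGM2 (0.33), RPE (0.29) and TALDO1 (0.21) and by PGLS (-0.55), SLC37A4 (-0.43) and G6PC3 (-0.41). Of 16 genes of the MLX network 2 rose, ARRDC3 (0.47) and TXN (0.26), and 4 fell, led by KLF10 (-0.995), MXD4 (-0.36) and MAX (-0.34). Of 24 hypoxia genes 8 rose, led by DDIT4, ANKRD37 (0.89) and VEGFA (0.49), and 7 fell, led by SLC2A3, NDRG1 (-0.44) and BNIP3L (-0.41). All these counts are to be read against the 45.9% of genes called in this comparison.

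Over time in DMSO of the OSMI-2 experiment, with values relative to the median gene, 4 of 17 glycolysis enzymes were called, PFKFB2 (1.55) and ADPGK (1.23) higher and ALDOA (-0.89) and ALDOC (-0.55) lower. The counts of this comparison are to be read against the 18.5% of all genes called. UGP2 (-0.64), PGLS (-0.64) and PYGL (-0.64) were lower on the branches, DLAT (-0.71) among 9 genes around pyruvate dehydrogenase and MPC1 (-0.51) among 11 carriers. Of 16 genes of the MLX network MLXIPL, the paralogue of MLXIP known as ChREBP, was higher (1.18) and TXNRD1 (-0.70) and TXN2 (-0.67) were lower. Of 24 hypoxia genes BNIP3L (-0.70) and ALDOC were lower, and of 15 energy sensing genes edgeR called 0, with 2 at an unadjusted p below 0.05.

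Across the 23 libraries, with each experiment centred on its own mean, the genes whose log2(CPM + 1) followed TXNIP most closely were GFPT2 (Pearson r = 0.965), ENOSF1 (0.960) and TCTN1 (0.948), among 8265 genes of at least 10 CPM on average. For ARRDC4 they were HMGA2 (0.941), HABP4 (0.930) and GDAP1 (0.909), and TXNIP and ARRDC4 themselves had r = 0.75. For MLXIP they were PRRC2B (0.974), SRCAP (0.973) and CLEC16A (0.972), for SLC2A1 ESYT1 (0.962), FAM134C (0.957) and MOGS (0.956), for HK1 PRKACA (0.868), GATAD2A (0.855) and TRAPPC9 (0.850), and for HK2 FOXP1 (0.934), TGFBR3 (0.930) and UBE4B (0.928). For PFKFB3 they were SLC44A2 (0.941), MFN2 (0.936) and GTF3C1 (0.935), for PFKFB4 CCDC8 (0.879), HDAC11 (0.842) and DPF1 (0.822), for PFKP SAMD1 (0.975), CAPG (0.972) and HINT2 (0.969), and for LDHA UQCRC2 (0.957), MIPEP (0.950) and GDE1 (0.949). Among pairs of the 10 genes r was highest for MLXIP and PFKFB3 (0.845), and MLXIP had 0.15 with TXNIP and -0.06 with ARRDC4. All these values of r are descriptions over libraries that share treatment, time, depth and GC dependence.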

How the data were processed

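Counts of reads per bin were taken from 4 deposited tables of 23 libraries. Alignment was with STAR to hg19, per the submitters' processing notes. The version, the counter, its annotation and its use of strand are not given in the sources used here. The raw counts, and the p-values, adjusted p-values and log2 fold changes of the authors' test of bin usage, are deposited side by side, with headers as DEXSeq writes them, per the file headers. All count columns were used (0 left out).

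Bins not marked as detained introns were summed to give the value of a gene. Levels are CPM of the library total. Genes were tested with edgeR 4.0.16 (R 4.3.3; filterByExpr, TMM factors over genes and detained introns, quasi-likelihood test, two-sided, Benjamini-Hochberg over all genes), each comparison in its own fit, and SE is the fold change divided by the root of F. Bins were tested with limma 3.58.1 on log2((bin + 1)/(rest of gene + 1)), for a mean of at least 10 counts. Alternatives were DESeq2 1.42.0, other scalings, filters and gene values, removal of the GC trend, a block and leaving out each library. Both fits were also run on simulated counts with a fixed spread and no shift in scaling or GC dependence. These are simpler than the real counts, so that run cannot show how the fits behave with the spread seen here. Replicate pairs differed by more than sampling noise (chi-square per degree of freedom 4.27 to 296.8). The labels do not say that replicates are separate cultures, so p-values measure the spread between these samples. One labelled OSMI-2 6 h sample was not analysed here.

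The 10 genes and the lists were chosen with earlier results of these data known. All 10 genes and their detained introns were named. Of each list the 3 largest rises and falls past the threshold were named, of other bins up to 6 per comparison by adjusted p, and of genes alike the 3 with the highest r. GC content came from the longest GENCODE 29 transcript for 91.3% of the genes. RefSeq promoters are on GRCh38.p14 and table coordinates on hg19, and the 2 were not mixed. Part of the list of branches from glucose 6-phosphate is not reported here.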

Additional observations from a re-analysis of the deposited data

Results flagged for a closer look

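Effects of the 2 inhibitors at 6 h differed for 5 of the 10 genes by the test of the difference itself, in 1 edgeR fit of the 4 groups at 6 h (19.9% of all genes called, with a median difference of 0.36). The fitted difference, OSMI-2 effect minus TMG effect on the log2 scale, was -1.52 for TXNIP (adjusted p = 0.0142). It was 1.17 for HK2 (adjusted p = 0.01), 1.10 for PFKFB4 (0.0204), 1.05 for PFKP (0.0194) and 0.95 for HK1 (0.0249). With library totals alone the call held for TXNIP and was lost for HK1 (adjusted p = 0.103), HK2 (0.0898), PFKFB4 (0.122) and PFKP (0.0723). For all 5 the SE of the difference was below that of the OSMI-2 effect alone. It was 0.208 against 0.298 for HK2 and 0.336 against 0.395 for TXNIP. The adjusted p-values of this fit may therefore be too small.

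The change from 2 h to 6 h in DMSO differed between the experiments for 3 genes (13.2% of all genes called, median difference -0.29). The fitted difference, OSMI-2 minus TMG experiment, was 2.27 for TXNIP (adjusted p = 7.04e-04), -0.81 for HK2 (adjusted p = 0.0245) and -1.14 for LDHA (adjusted p = 0.0183). With library totals alone the adjusted p was 0.732 for HK2 and 0.31 for LDHA. The SE of the difference was 0.219 for HK2 and 0.284 for LDHA. Both are below the SE of the change in the OSMI-2 experiment alone (0.252 and 0.295). For TXNIP the 2 were about the same (0.308 and 0.307). The adjusted p-values of this fit may therefore be too small. The DMSO libraries of the experiments differed in GC slope and in detained introns as well. With the GC trend of each library removed the 3 genes were still called. The part of GC dependence beyond that refit, and that of detained introns, was not tested.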

How the results depend on the processing

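Counts of called genes among the 10 moved by more than 1.5 times as follows. Here and in the paragraphs that follow, the share of all genes or bins called under each alternative is not given. The counts are therefore not results particular to the 10 genes. Median-of-ratios factors gave 2 for OSMI-2 at 6 h (1 as reported) and 8 for the OSMI-2 against the TMG effect at 6 h (5). TMM over genes only gave 1 for DMSO over time in the OSMI-2 experiment (2) and 2 for the OSMI-2 against the TMG effect at 6 h. Library totals alone gave 0 for OSMI-2 at 6 h, 2 for TMG at 6 h (1) and 1 for the OSMI-2 against the TMG effect at 6 h. They also turned the DMSO difference of MLXIP from -0.04 to 0.61 (adjusted p = 0.044). All libraries in 1 fit gave 6 for OSMI-2 at 6 h, 0 for TMG at 2 h (1) and at 6 h, 4 for DMSO in the OSMI-2 experiment, 4 for the OSMI-2 effect at 6 h against 2 h (0) and 5 for the DMSO difference (3). The highest bin as gene value gave 4, 8 and 5 for DMSO in the OSMI-2 experiment, the OSMI-2 against the TMG effect at 6 h and the DMSO difference. With the GC trend removed the counts were 4 for OSMI-2 at 6 h, 2 for TMG at 6 h, 4 for DMSO in the OSMI-2 experiment, 4 for the OSMI-2 effect over time, 9 for the OSMI-2 against the TMG effect at 6 h and 8 for the DMSO difference. The cause of these moves was not tested.

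With 1 library left out in turn the counts ran from 0 to 4 for OSMI-2 at 6 h, 0 to 2 for TMG at 2 h and at 6 h, 0 to 5 for DMSO in the OSMI-2 experiment, 0 to 2 for the OSMI-2 effect over time, 0 to 10 for the OSMI-2 against the TMG effect at 6 h and 1 to 6 for the DMSO difference. For bins they ran from 5 to 12 (13 as reported) and from 7 to 15 (11) for DMSO in the OSMI-2 and TMG experiments. A minimum of 50 counts left 1 bin called for OSMI-2 at 6 h (4).

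A replicate block was fitted with the column letter, which is not the labels' replicate number, so no pairing was assumed. Libraries of the same letter deviated together with correlations of 0.192, 0.103 and 0.191 for DMSO in the TMG experiment, where the block left 6 genes called. Elsewhere at least 1 letter was 0.1 or lower. For OSMI-2 at 2 h, however, letters b and c had 0.373 and 0.634, with -0.36 for a. The block gave 0 genes (TXNIP adjusted p = 0.337) and 7 bins for OSMI-2 at 6 h, 2 genes for TMG at 2 h and 3 for TMG at 6 h, and left the other counts within 1.5 times. With each gene or bin taken once per alternative, 106 values lost and 78 gained a call, and 1, that of MLXIP above, changed sign with a call. Values called in neither setting also changed sign, as for HK1 at 2 h of OSMI-2 in 8 of 16 alternatives and for the OSMI-2 effect over time of ARRDC4 in 10 of 20. TXNIP had 93 to 476 counts a library. The SE was nearly as large for LDHA (0.243), which had far more counts, as for TXNIP (0.258) at 2 h of OSMI-2.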
